A study of Mus musculus with 12 samples.

Results

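The genes described here are 10 markers of monocytes recruited from blood and of the inflammatory macrophages they become: Ccr2, Ccl2, Ly6c2, Plac8, Fcgr1, Fcgr4, Lyz2, Cd68, Trem2 and Gpnmb. They were taken by gene symbol from a table of 34714 genes measured by RNA sequencing of mouse heart, and all 10 were found once each. The study set out to see whether leflunomide protects the heart from the toxicity of anti-PD-1 in mice with melanoma. The libraries used fall into 3 groups: aPD1_lef (4 libraries, anti-PD-1 with leflunomide), aPD1_veh (4 libraries, anti-PD-1 with what is read here as vehicle) and IgG_lef (3 of 4 labelled libraries, control antibody with leflunomide). Anti-PD-1 releases T cells from the inhibitory PD-1 receptor, and leflunomide blocks pyrimidine synthesis in dividing lymphocytes. A group given control antibody without leflunomide was not analysed here, so aPD1_veh and IgG_lef differ in both antibody and drug, and the part of each in a difference between them cannot be told apart. The sources used here give no strain, age, dose or time, and do not say whether libraries are separate animals. The p-values therefore measure only the spread between these samples, which may be technical. The values are taken as FPKM (fragments scaled for transcript length and library size), summed to between 393494 and 465511 per library, and are of unknown read depth.

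Classical monocytes leave the bone marrow and enter injured tissue through the chemokine receptor CCR2, which follows its ligand CCL2. In the heart they stand beside resident macrophages that are replaced slowly from monocytes. Once in tissue they lose Ly6C, take up debris and immune complexes through Fc receptors, and can turn on a lipid-handling programme marked by TREM2 and GPNMB. Several of these genes are not exclusive to monocytes: Lyz2 and Cd68 are also high in resident macrophages, and Plac8 is also found in neutrophils.

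Of the 10 markers, Fcgr1 and Trem2 rose in aPD1_lef against aPD1_veh, Fcgr1 fell in aPD1_veh against IgG_lef, and none changed between aPD1_lef and IgG_lef. All 10 passed the filter on low values (1 FPKM or more in at least 4 libraries), which left 12005 genes for limma on log2(FPKM + 1) with Benjamini-Hochberg adjustment and a threshold of 0.05. In the same tests 32.4% of all genes were called for aPD1_lef against aPD1_veh, 1.17% for aPD1_veh against IgG_lef and 7.16% for aPD1_lef against IgG_lef. The 2 of 10 markers called in the first comparison are thus no larger a share than that of all genes. The comparisons share libraries, so they are not independent.

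A pair of libraries stood apart and touch most of the values given here. IgG_lef replicate 3 had the highest or second highest level of all 10 markers among the 11 libraries, and aPD1_lef replicate 4 of 9, the exception being Ly6c2. Within IgG_lef, replicate 3 exceeded the mean of the other 2 libraries by 2.45-fold to 10.9-fold over the markers (median 3.86-fold, against 1.09-fold over all genes tested). Within aPD1_lef, replicate 4 exceeded the mean of the other 3 by 1.44-fold to 12.2-fold (median 2.18-fold, against 0.909-fold over all genes tested). Their summed levels of 15 pan-leukocyte and pan-macrophage genes were 776 FPKM in aPD1_lef replicate 4 and 733 in IgG_lef replicate 3, against 205 to 503 in the other libraries. aPD1_lef replicate 4 also had the lowest sum of 8 cardiomyocyte genes, 10348 FPKM against 21012 to 39456 elsewhere. In bulk heart RNA, more cells of a type and more RNA per cell cannot be told apart.

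**Figure D1:**
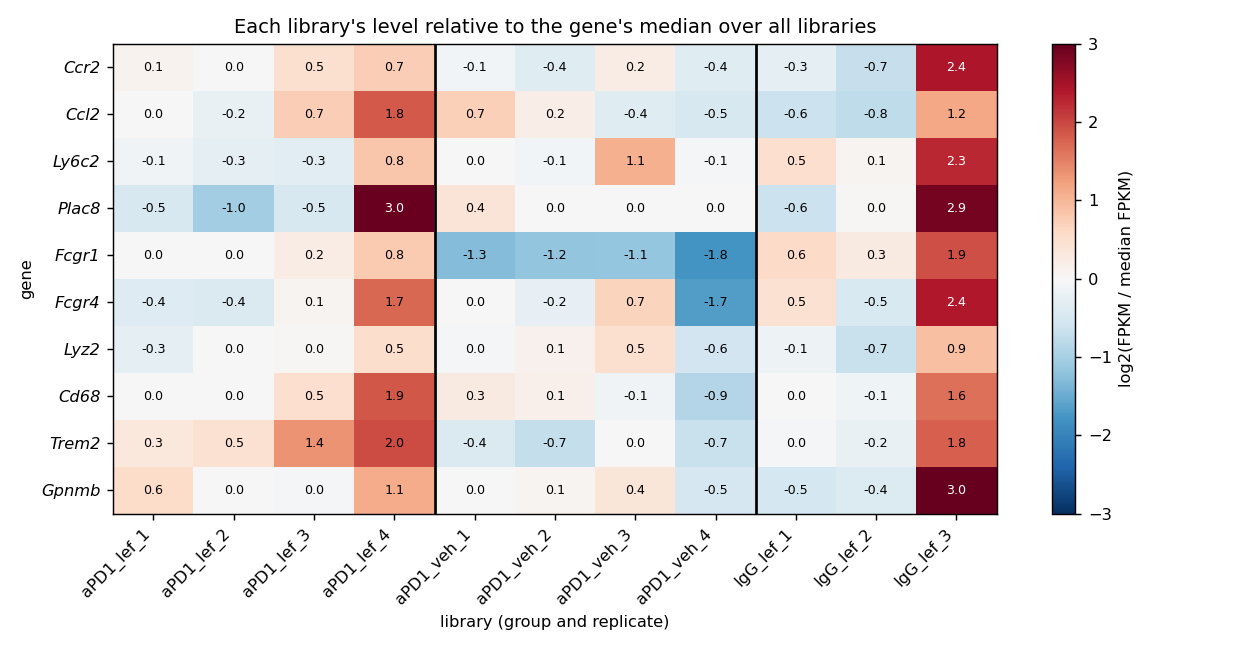
Level of each marker (rows) in each library (columns) as log2 of its FPKM over the gene's median across the 11 libraries, with vertical lines between aPD1_lef, aPD1_veh and IgG_lef. IgG_lef replicate 3 and aPD1_lef replicate 4 are high for nearly every marker, while Fcgr1 is below its median in all 4 aPD1_veh libraries.

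The recruitment pair did not separate the groups. Ccr2 (chromosome 9, 124101918 to 124109140, GRCm38), the chemokine receptor of classical monocytes, had 2.32, 2.17, 3.02 and 3.61 FPKM in aPD1_lef, 2.07, 1.70, 2.55 and 1.69 in aPD1_veh, and 1.80, 1.34 and 11.7 in IgG_lef. The anti-PD-1 groups overlapped, and the third IgG_lef library lay above every other library. On the log2 scale the difference was 0.33 ± 0.429 (SE) for aPD1_lef against aPD1_veh (limma, adjusted p = 0.582) and -0.55 ± 0.463 for aPD1_veh against IgG_lef (adjusted p = 0.723), where it was 0.22 without IgG_lef replicate 3. Its ligand Ccl2 (chromosome 11, 82035577 to 82037452), secreted by macrophages, fibroblasts and vessel cells, had 4.34, 3.74, 7.22 and 15.5 FPKM in aPD1_lef, 7.12, 4.95, 3.36 and 3.10 in aPD1_veh, and 2.78, 2.56 and 9.70 in IgG_lef. Here the highest library was aPD1_lef replicate 4, without which the ratio of means of aPD1_lef to aPD1_veh was 1.10 instead of 1.66. The difference was 0.50 ± 0.445 (adjusted p = 0.408).

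A further CCR2 ligand of the mouse was called. Ccl12, a monocyte-attracting chemokine, had 15.05, 13.7, 14.1 and 13.01 FPKM in aPD1_lef, 4.19, 6.61, 3.58 and 3.86 in aPD1_veh, and 19.9, 9.38 and 24.6 in IgG_lef. The aPD1_veh libraries were the lowest of all, and aPD1_lef overlapped IgG_lef. Ccl12 rose by 1.46 ± 0.251 on the log2 scale in aPD1_lef against aPD1_veh (adjusted p = 0.00278) and fell by 1.70 ± 0.271 in aPD1_veh against IgG_lef (adjusted p = 0.0153). Ccl7, another CCR2 ligand, averaged 5.33 ± 1.22 FPKM in aPD1_lef, 5.09 ± 2.31 in aPD1_veh (SD, n = 4 each) and 6.97 ± 4.88 in IgG_lef (SD, n = 3), and was not called in any comparison. Of 14 tested chemokine and receptor genes of monocytes, 2 rose in aPD1_lef against aPD1_veh, Ccl12 and the membrane-bound chemokine Cx3cl1 (19.003 ± 9.75 against 7.07 ± 1.38 FPKM), and 12 did not pass. Their median log2 difference was 0.40, against 0.04 over all genes tested.

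The monocyte markers Ly6c2 and Plac8 were not called in any comparison. Ly6c2 (chromosome 15, 75108161 to 75112066), which encodes the surface protein that defines classical monocytes in the mouse, had 6.82, 6.04, 5.94 and 13.2 FPKM in aPD1_lef, 7.38, 6.93, 15.4 and 7.07 in aPD1_veh, and 10.5, 7.82 and 35.6 in IgG_lef. Each group held 1 library well above its others. For aPD1_lef against aPD1_veh the log2 difference was -0.17 ± 0.428 (adjusted p = 0.777), and against IgG_lef it was -0.85 ± 0.462 (adjusted p = 0.236), or -0.23 without IgG_lef replicate 3. The longest transcripts of Ly6c2 and its neighbour Ly6c1, a gene of endothelial cells, were 97.6% identical over 822 aligned bases (GENCODE M21), so reads could be split between them. Ly6c1 stood at 214 to 283 FPKM in aPD1_lef, 267 to 538 in aPD1_veh and 311 to 337 in IgG_lef. Of the libraries high for Ly6c2, aPD1_lef replicate 4 had the lowest Ly6c1 of all at 214, aPD1_veh replicate 3 had the highest at 538, and IgG_lef replicate 3 had 321.

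Plac8 (chromosome 5, 100551589 to 100572253), a small cysteine-rich protein of monocytes and neutrophils, had 2.15, 1.45, 2.15 and 23.5 FPKM in aPD1_lef, 3.93, 2.99, 3.00 and 3.02 in aPD1_veh, and 1.92, 3.06 and 21.8 in IgG_lef. Apart from the 2 libraries that stand apart, its level was lower in aPD1_lef than in aPD1_veh. The ratio of means of aPD1_lef to aPD1_veh was 2.26 with all libraries and 0.592 without aPD1_lef replicate 4, and the log2 difference was 0.23 ± 0.758 (adjusted p = 0.839) and -0.54 without it (adjusted p = 0.511). Summed over 11 neutrophil genes, aPD1_lef replicate 4 held 54.9 FPKM against 3.87 to 6.55 in the rest of its group, and IgG_lef replicate 3 held 15.6 against 3.57 and 4.85. The aPD1_veh libraries held 51.3 to 110.5 FPKM of these genes, with Plac8 at 2.99 to 3.93. In every library S100a8 and S100a9 were the largest of these genes, so the neutrophil sum weighs them most. They held 44.6 and 48.8 of 110.5 FPKM in aPD1_veh replicate 1. The part of neutrophils in the Plac8 values was not tested.

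Other genes of classical monocytes were tested beside these. Of 12, 4 rose in aPD1_lef against aPD1_veh and 8 did not pass, with a median log2 difference of 0.38. The 4 were Vcan (13.8 ± 4.83 against 1.62 ± 0.983 FPKM) and Fn1 (68.8 ± 36.9 against 7.36 ± 0.952), which encode matrix proteins also made by fibroblasts, Ifi27l2a (198.9 ± 79.9 against 69.2 ± 21.7), an interferon-induced gene, and S100a4. The sum of 9 fibroblast genes was 1635 to 4287 FPKM in aPD1_lef against 449 to 655 in aPD1_veh, with 8 of 9 called higher. Of 10 listed non-classical monocyte genes, 5 passed the filter and were tested. Among these 5, Ace rose (96.4 ± 28.9 against 24.4 ± 6.71 FPKM), Eno3, the muscle enolase, fell (330.1 ± 201.2 against 829.7 ± 128.8), and 3 did not pass. Of the listed genes left out by the filter, Treml4 reached 0.549 FPKM at most and Cd300e 0.236. The cells behind the rise of Ace were not tested. Against IgG_lef, Ifi27l2a fell in aPD1_veh (69.2 ± 21.7 against 271.5 ± 76.6 FPKM), the only one of the 12 classical genes to pass there, and limma called 0 of the 5 non-classical genes, 1 at an unadjusted p under 0.05. In aPD1_lef against IgG_lef, limma called Vcan, Fn1 and Ace higher and none of either list lower. At an unadjusted p under 0.05 were 4 of the 12 and 4 of the 5, against 30% of all genes. Lower in aPD1_lef without overlap were 2 of the 12 and 1 of the 5, against 11.4% of all genes. Higher without overlap were 1 of the 12 and 2 of the 5, against 15.3%.

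**Figure D2:**
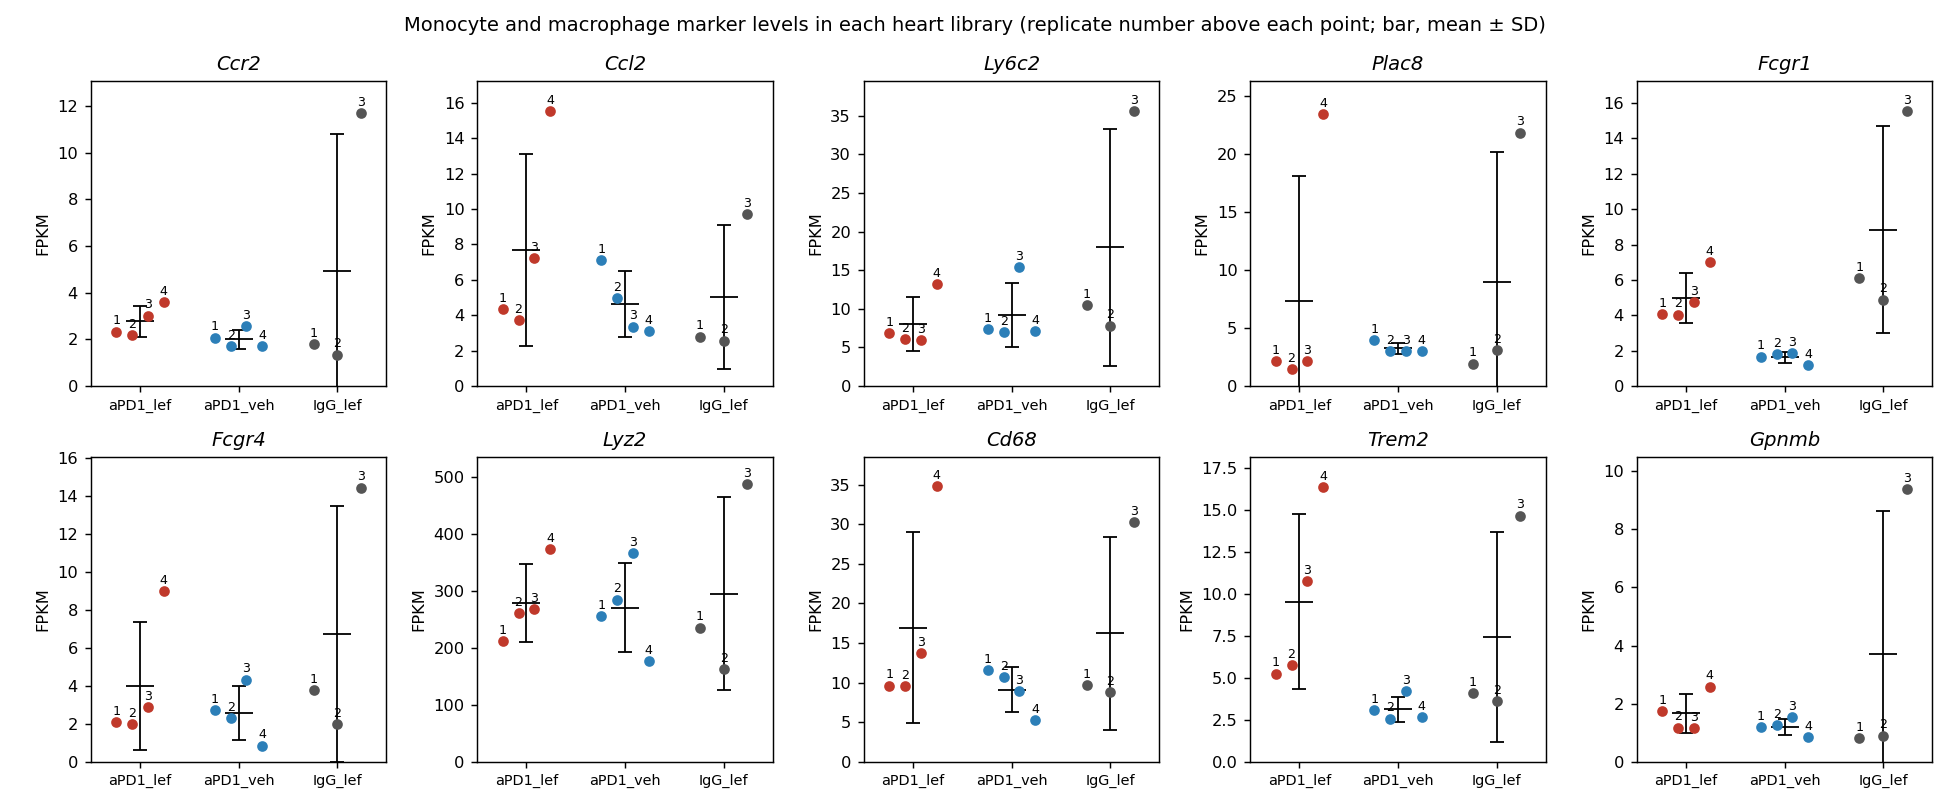
FPKM of the 10 markers in each library of aPD1_lef, aPD1_veh and IgG_lef, with the replicate number above each point and a bar for mean ± SD (cut at 0). Fcgr1 lies between 1.18 and 1.84 FPKM in aPD1_veh and at 4.03 or more in every other library, while most other markers differ mainly by replicate 4 of aPD1_lef and replicate 3 of IgG_lef.

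Fcgr1 set aPD1_veh apart from both other groups. It encodes the high-affinity receptor for IgG on monocytes and macrophages and lies on chromosome 3, 96282909 to 96293969. The promoter windows of the 3 markers on which the Fc receptor and TREM2 results turn follow, from RefSeq on GRCm38.p6, with 250 bases before to 50 after the annotated start, printed in the direction of the gene. Fcgr1 is at chr3:96293920-96294219 on the minus strand, Fcgr4 at chr1:171018676-171018975 on the plus strand and Trem2 at chr17:48346151-48346450 on the plus strand. Capitals mark matches, on either strand, to the core motif of the myeloid factor PU.1 (GAGGAA, or TTCCTC on the other strand), to the gamma-activated site bound by STAT factors (TTCNNNGAA) and to the interferon-stimulated element (GAAA, any pair of bases, GAAA).
Fcgr1: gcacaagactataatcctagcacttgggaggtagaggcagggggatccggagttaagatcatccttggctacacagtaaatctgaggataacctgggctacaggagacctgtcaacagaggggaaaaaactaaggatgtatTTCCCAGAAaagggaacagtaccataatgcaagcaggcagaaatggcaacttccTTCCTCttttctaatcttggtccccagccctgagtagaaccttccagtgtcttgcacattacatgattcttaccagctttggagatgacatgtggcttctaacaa
Fcgr4: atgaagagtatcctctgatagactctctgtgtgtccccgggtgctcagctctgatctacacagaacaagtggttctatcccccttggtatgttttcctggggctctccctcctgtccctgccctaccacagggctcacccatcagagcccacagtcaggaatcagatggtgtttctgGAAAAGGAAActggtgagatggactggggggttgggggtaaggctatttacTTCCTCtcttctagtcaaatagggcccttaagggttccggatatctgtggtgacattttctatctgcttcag
Trem2: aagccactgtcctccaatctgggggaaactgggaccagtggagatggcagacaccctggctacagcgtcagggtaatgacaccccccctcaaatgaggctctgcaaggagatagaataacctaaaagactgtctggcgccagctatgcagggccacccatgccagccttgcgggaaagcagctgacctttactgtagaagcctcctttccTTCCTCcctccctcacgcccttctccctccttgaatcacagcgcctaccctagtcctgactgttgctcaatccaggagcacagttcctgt
Fcgr1 held a gamma-activated site, TTCCCAGAA, that begins 109 bases before the start, and a PU.1 core at 55 bases before it. Fcgr4 held an interferon-stimulated element, GAAAAGGAAA, at 73 bases and a PU.1 core at 22 bases before the start, and Trem2 a PU.1 core at 40 bases before it. These matches did not overlap each other. RefSeq windows were found for 9 of the 10 markers, Ccl2 being the other. Of these 9, the PU.1 core was in 6, the gamma-activated site in Fcgr1 alone and the interferon-stimulated element in Fcgr4 alone. Counted by window, these were 7, 1 and 1 of 11 windows, against 28.3%, 8.30% and 3.44% of 32851 promoter windows. A match describes letters in the window, not binding.

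In each library of aPD1_lef Fcgr1 stood at 4.08, 4.03, 4.73 and 7.02 FPKM, against 1.66, 1.80, 1.84 and 1.18 in aPD1_veh. IgG_lef libraries had 6.08, 4.88 and 15.6. All 4 aPD1_veh libraries lay below all 7 others, and aPD1_lef overlapped IgG_lef. Fcgr1 averaged 4.96 ± 1.40 FPKM in aPD1_lef and 1.62 ± 0.306 in aPD1_veh (SD, n = 4 each), a ratio of 3.06, and rose by 1.17 ± 0.284 (SE) on the log2 scale (limma, adjusted p = 0.0124). That call held with each library left out in turn (adjusted p = 0.00169 to 0.0402). In aPD1_veh against IgG_lef, which averaged 8.84 ± 5.84 FPKM (SD, n = 3), Fcgr1 fell by 1.76 ± 0.307 (adjusted p = 0.0222), and 0.925% of all genes were called lower in that comparison. The ratio of means was 0.183, or 0.296 without IgG_lef replicate 3. The call was lost without aPD1_veh replicate 1 (adjusted p = 0.0565), 2 (0.0634), 3 (0.0628) or 4 (0.0777) and without IgG_lef replicate 3 (0.0508), with adjusted p from 0.00474 to 0.0781 over all alternatives. Between aPD1_lef and IgG_lef the difference was -0.59 ± 0.307 (adjusted p = 0.215), or -0.14 without IgG_lef replicate 3. By mean level the order was IgG_lef, aPD1_lef, aPD1_veh, and the first pair did not differ beyond their spread.

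Fcgr4 (chromosome 1, 171018926 to 171029761), a receptor for IgG on mouse monocytes and neutrophils that signals through the shared gamma chain, was not called in any comparison. It had 2.09, 1.99, 2.87 and 8.98 FPKM in aPD1_lef, 2.71, 2.30, 4.32 and 0.849 in aPD1_veh, and 3.75, 1.97 and 14.4 in IgG_lef. All 3 groups overlapped. Without aPD1_lef replicate 4 the ratio of means of aPD1_lef to aPD1_veh was 0.911 instead of 1.57, and the log2 difference of 0.39 ± 0.539 (adjusted p = 0.598) was -0.0073. Within a library, Fcgr4 was 0.495 to 1.28 times Fcgr1 in aPD1_lef, 0.723 to 2.35 times in aPD1_veh and 0.403 to 0.928 times in IgG_lef. The gamma chain Fcer1g, needed by both receptors at the surface, averaged 45.8 ± 28.4 FPKM in aPD1_lef, 25.7 ± 6.58 in aPD1_veh (SD, n = 4 each) and 40.9 ± 25.4 in IgG_lef (SD, n = 3) and was not called, nor was the adaptor Tyrobp at 41.9 ± 20.9, 29.8 ± 5.38 and 38.4 ± 22.0 FPKM in the same groups. Of 8 tested Fc receptor and adaptor genes besides the markers, 2 rose in aPD1_lef against aPD1_veh and 6 did not pass. Among those that rose was Lyn, a Src-family kinase, at 13.4 ± 0.656 against 10.1 ± 0.807 FPKM. In the other comparisons limma called 0 of the 8, with 1 at an unadjusted p under 0.05 for aPD1_veh against IgG_lef and 0 for aPD1_lef against IgG_lef.

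Interferon response genes also separated the groups. Their sum over 19 genes was 262 to 535 FPKM in aPD1_lef, 138 to 214 in aPD1_veh and 686 to 1454 in IgG_lef, with no overlap between any of the groups. Of the 19, 14 rose in aPD1_lef against aPD1_veh, 15 fell in aPD1_veh against IgG_lef, and 9 fell in aPD1_lef against IgG_lef, in each case with the rest not past the threshold. Gbp3, an interferon-induced GTPase, averaged 13.99 ± 4.93 FPKM in aPD1_lef, 6.65 ± 1.35 in aPD1_veh and 38.4 ± 10.1 in IgG_lef. Within aPD1_lef the order was not shared: replicate 1 had the highest interferon sum, 535, and 4.08 FPKM of Fcgr1, while replicate 4 had 375 and 7.02. The part of interferon signalling in the Fcgr1 difference was not tested. With predicted and clone-named genes skipped, the tested genes whose log2 levels followed Fcgr1 most closely over the 11 libraries were Ifi204 (Pearson's r = 0.975), Siglec1 (0.974) and Zbp1 (0.971). The points share groups and libraries.

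**Figure D3:**
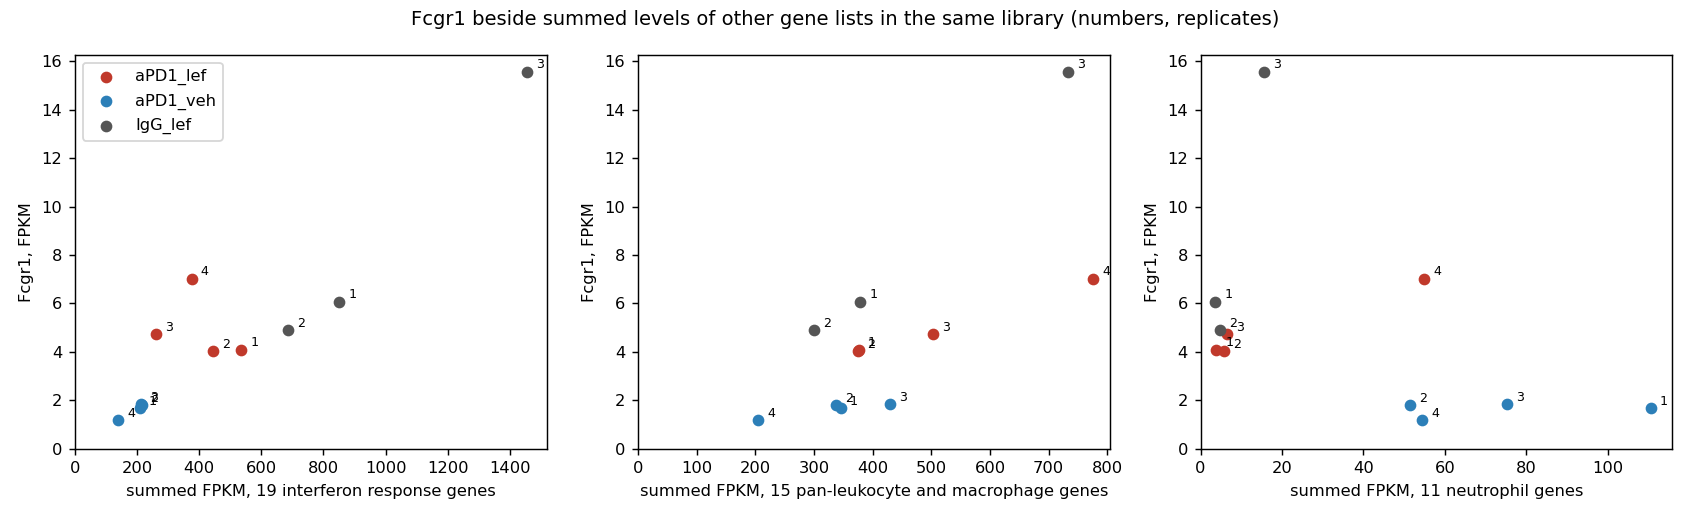
Fcgr1 in FPKM (vertical) against the summed FPKM of 19 interferon response genes, 15 pan-leukocyte and macrophage genes and 11 neutrophil genes (horizontal) in each library of aPD1_lef, aPD1_veh and IgG_lef, with replicate numbers. The groups are apart along the interferon axis, overlap along the leukocyte axis, and aPD1_veh lies at 51.3 or more along the neutrophil axis, as does aPD1_lef replicate 4 at 54.9.

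Among phagocyte genes in general, neither marker was called. Lyz2 (chromosome 10, 117277541 to 117282272), the lysozyme of macrophages and neutrophils, was the most abundant of the 10, at 211, 260.4, 267 and 373 FPKM in aPD1_lef, 255, 284, 366 and 176 in aPD1_veh, and 235, 163 and 487 in IgG_lef. Its log2 difference was 0.06 ± 0.327 for aPD1_lef against aPD1_veh (adjusted p = 0.906), within the spread of either group. The longest transcripts of Lyz2 and Lyz1 were 95.8% identical over 1264 aligned bases, and Lyz1 stood at 0.390 to 3.16 FPKM over all libraries. Cd68 (chromosome 11, 69664213 to 69666170), a lysosomal membrane protein of macrophages, ranged from 9.53 to 34.8 FPKM in aPD1_lef, 5.22 to 11.6 in aPD1_veh and 8.76 to 30.3 in IgG_lef. Its ratio of means of aPD1_lef to aPD1_veh was 1.86, or 1.20 without aPD1_lef replicate 4, and the log2 difference of 0.68 ± 0.457 did not pass (adjusted p = 0.276).

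None of the 15 pan-leukocyte and pan-macrophage genes was called by limma in aPD1_lef against aPD1_veh, aPD1_veh against IgG_lef or aPD1_lef against IgG_lef, and at an unadjusted p under 0.05 there were 1, 1 and 0. The median log2 difference was 0.57 for aPD1_lef against aPD1_veh and -0.36 for aPD1_veh against IgG_lef. Among them, the macrophage receptor Adgre1 averaged 13.3 ± 4.08 FPKM in aPD1_lef, 8.11 ± 2.19 in aPD1_veh (SD, n = 4 each) and 12.3 ± 7.78 in IgG_lef (SD, n = 3). The leukocyte phosphatase Ptprc averaged 3.65 ± 1.08 FPKM in aPD1_lef, 2.91 ± 0.662 in aPD1_veh and 4.76 ± 3.44 in IgG_lef. The integrin Itgam averaged 7.67 ± 7.54 FPKM in aPD1_lef, 3.92 ± 1.59 in aPD1_veh and 4.04 ± 3.48 in IgG_lef. None of 9 resident macrophage genes was called by limma either (2, 1 and 1 at an unadjusted p under 0.05 in the same 3 comparisons), with sums of 196 to 251 FPKM in aPD1_lef, 149.6 to 209 in aPD1_veh and 188 to 236 in IgG_lef.

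Of the lipid-handling pair, Trem2 rose and Gpnmb was not called. Trem2 (chromosome 17, 48346401 to 48352276), a lipid-sensing receptor that signals through Tyrobp, had 5.24, 5.76, 10.8 and 16.4 FPKM in aPD1_lef, 3.09, 2.57, 4.19 and 2.63 in aPD1_veh, and 4.06, 3.59 and 14.6 in IgG_lef. Every aPD1_lef library lay above every aPD1_veh library, and IgG_lef overlapped both. It averaged 9.53 ± 5.19 FPKM in aPD1_lef and 3.12 ± 0.753 in aPD1_veh (SD, n = 4 each), a ratio of 3.06, and rose by 1.24 ± 0.411 on the log2 scale (limma, adjusted p = 0.0399). The margin was small: the call was lost without aPD1_lef replicate 3 (adjusted p = 0.0951) or 4 (0.0979), without aPD1_veh replicate 1 (0.0756), 2 (0.0940), 3 (0.0548) or 4 (0.0948), with quantile normalization (0.0547) and with no filter on low values (0.0728), in a range of 0.0107 to 0.113. Against IgG_lef, Trem2 differed by -0.81 ± 0.444 in aPD1_veh (adjusted p = 0.540) and by 0.43 ± 0.444 in aPD1_lef (adjusted p = 0.531). Without IgG_lef replicate 3 these differences were -0.24 in aPD1_veh and 0.9985 in aPD1_lef. With predicted and clone-named genes skipped, the tested genes closest to Trem2 over the 11 libraries were Sh3bp2 (Pearson's r = 0.984), Pclaf (0.978) and Incenp (0.968).

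Gpnmb (chromosome 6, 49036518 to 49058182), a glycoprotein of lysosome-rich macrophages, stayed near the filter, at 1.16 to 2.59 FPKM in aPD1_lef, 0.841 to 1.52 in aPD1_veh, and 0.823 and 0.893 in IgG_lef apart from 9.38 in replicate 3. That library alone was 10.9-fold above the mean of the rest of its group. The ratio of means of aPD1_veh to IgG_lef was 0.325 with it and 1.40 without it, and the log2 difference was -0.59 ± 0.502 with it (adjusted p = 0.725) and 0.24 without it (adjusted p = 0.969). Of 16 tested genes of lipid-associated macrophages besides the markers, Spp1 and Cd9 rose and Lpl and Mitf fell in aPD1_lef against aPD1_veh, and 12 did not pass (median log2 difference 0.33). Spp1, which encodes the secreted protein osteopontin, had 32.1, 11.9, 16.8 and 153.2 FPKM in aPD1_lef against 0.746, 0.442, 0.690 and 0.436 in aPD1_veh. Cd9, a tetraspanin present on many cell types, averaged 83.1 ± 11.5 against 37.6 ± 4.91 FPKM, and Lpl, the lipoprotein lipase that heart muscle also makes, 808 ± 248 against 1433 ± 140.5. limma called 0 of the 16 in aPD1_veh against IgG_lef, with 2 at an unadjusted p under 0.05, and Cd9 alone rose in aPD1_lef against IgG_lef.

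**Figure D4:**
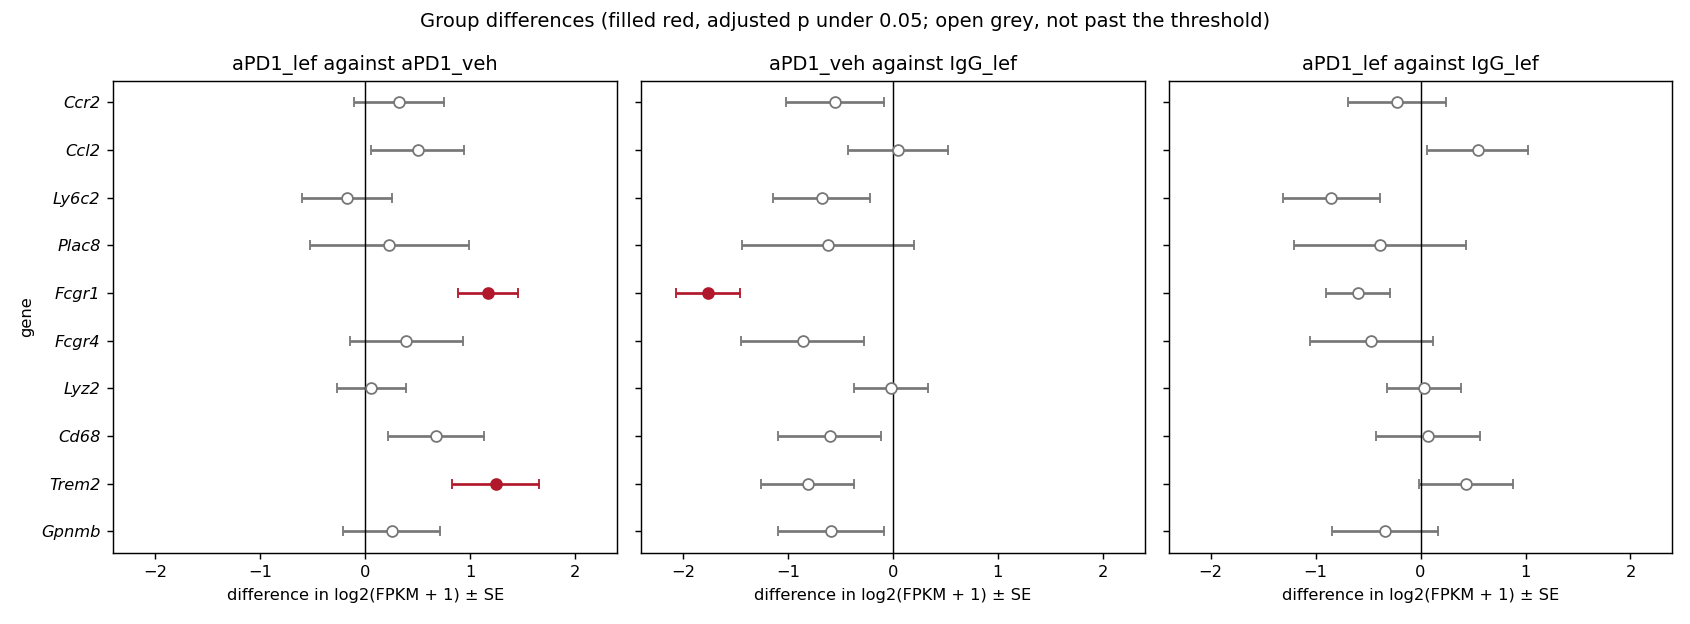
Difference in log2(FPKM + 1) with its SE for each marker in the 3 comparisons, filled red where the adjusted p was under 0.05 and open grey where it was not. Fcgr1 at 1.17 and Trem2 at 1.24 passed for aPD1_lef against aPD1_veh, and Fcgr1 at -1.76 for aPD1_veh against IgG_lef.

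As a set, 9 of the 10 markers were higher on average in aPD1_lef than in aPD1_veh, with 2 past the threshold, both higher, against 18.2% of all genes called higher. Their median log2 difference was 0.36, against 0.04 over all genes tested. Without aPD1_lef replicate 4, 6 of 10 were higher and the median was 0.11. It moved the other way, to 0.98 with 10 of 10 higher, without the libraries with atrial transcripts (aPD1_lef replicates 1 and 2, IgG_lef replicate 2). For aPD1_veh against IgG_lef the median was -0.61, against 0.01 over all genes, and 1 of 10 passed. Without IgG_lef replicate 3 that median was 0.08, with 5 of 10 higher in aPD1_veh. For aPD1_lef against IgG_lef it was -0.28, against 0.03, and limma called 0 of 10, also 0 at an unadjusted p under 0.05, where 5.15% of all genes were called higher and 2.01% lower. That median also turned without IgG_lef replicate 3, to 0.50, with 8 of 10 higher in aPD1_lef. With aPD1_lef replicate 4 left out instead, it was -0.41, with 8 of 10 lower in aPD1_lef. The groups did not overlap for 2 markers in the first comparison (both higher in aPD1_lef, against 20.6% of all genes), for 1 in the second (lower in aPD1_veh, against 7.91%) and for 0 in the third. In either direction, 36.1% of all genes did not overlap in the first comparison, 19% in the second and 26.7% in the third.

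The spread of the pan-leukocyte and pan-macrophage genes between libraries was then set beside the markers, in a measure chosen after their values were seen. Each marker was divided by the summed FPKM of the 15 pan-leukocyte and pan-macrophage genes of its library. In every library the complement genes C1qa, C1qb and C1qc were the largest of these, so the sum weighs them most. They held 100.3, 93.1 and 82.9 of 376 FPKM in aPD1_lef replicate 1. Fcgr1 came to 1.09%, 1.07%, 0.941% and 0.905% of that sum in aPD1_lef, 0.482%, 0.534%, 0.428% and 0.573% in aPD1_veh, and 1.60%, 1.63% and 2.12% in IgG_lef. On this measure no group overlapped another. aPD1_lef replicate 4, at 0.905%, was the lowest of its group, while IgG_lef replicate 3 was still the highest of its own. Trem2 came to 1.39% to 2.14% in aPD1_lef against 0.761% to 1.28% in aPD1_veh, also with no overlap. Markers higher without overlap in aPD1_lef than in aPD1_veh were thus 2 of 10, against 2.95% of all genes tested. The same 2 markers were higher without overlap before the scaling, where 20.6% of all genes were. The scaling lowers genes in general in aPD1_lef (median log2 difference -0.45), so the share of 2.95% is set by it as well.

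Another 2 markers were lower without overlap in aPD1_lef on this measure, against 18.1% of all genes. Ly6c2 came to 1.81%, 1.61%, 1.18% and 1.70% in aPD1_lef, 2.14%, 2.05%, 3.58% and 3.44% in aPD1_veh, and 2.77%, 2.60% and 4.86% in IgG_lef, so that aPD1_lef was the lowest of the groups. Lyz2 came to 48.2% to 69.3% in aPD1_lef, 73.8% to 85.8% in aPD1_veh and 54.2% to 66.5% in IgG_lef. The 4 aPD1_veh libraries were therefore lowest for Fcgr1 and highest for Lyz2 per unit of this sum. Lyz2 is also a neutrophil gene. The neutrophil sums were 51.3 to 110.5 FPKM in aPD1_veh, 3.87 to 54.9 in aPD1_lef and 3.57 to 15.6 in IgG_lef. The part of neutrophils in the Lyz2 share was not tested. In aPD1_veh against IgG_lef, Lyz2 was higher without overlap, against 3.75% of all genes, and Fcgr1 lower, against 1.24%. In aPD1_lef against IgG_lef, Fcgr1 and Ly6c2 were lower without overlap, against 1.11% of all genes, and 0 markers were higher, against 3.45%. When limma was run on values scaled in this way, Fcgr1 fell by 1.45 in aPD1_veh against IgG_lef (adjusted p = 0.00474), and no marker was called for aPD1_lef against aPD1_veh, where Fcgr1 differed by 0.75 (adjusted p = 0.0893) and Trem2 by 0.74 (adjusted p = 0.113). The median of all genes tested was then -0.45 in that comparison, against 0.04 without the scaling. Since the scaling also sets the shares of all genes given on this measure, no enrichment of markers is read from them.

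**Figure D5:**
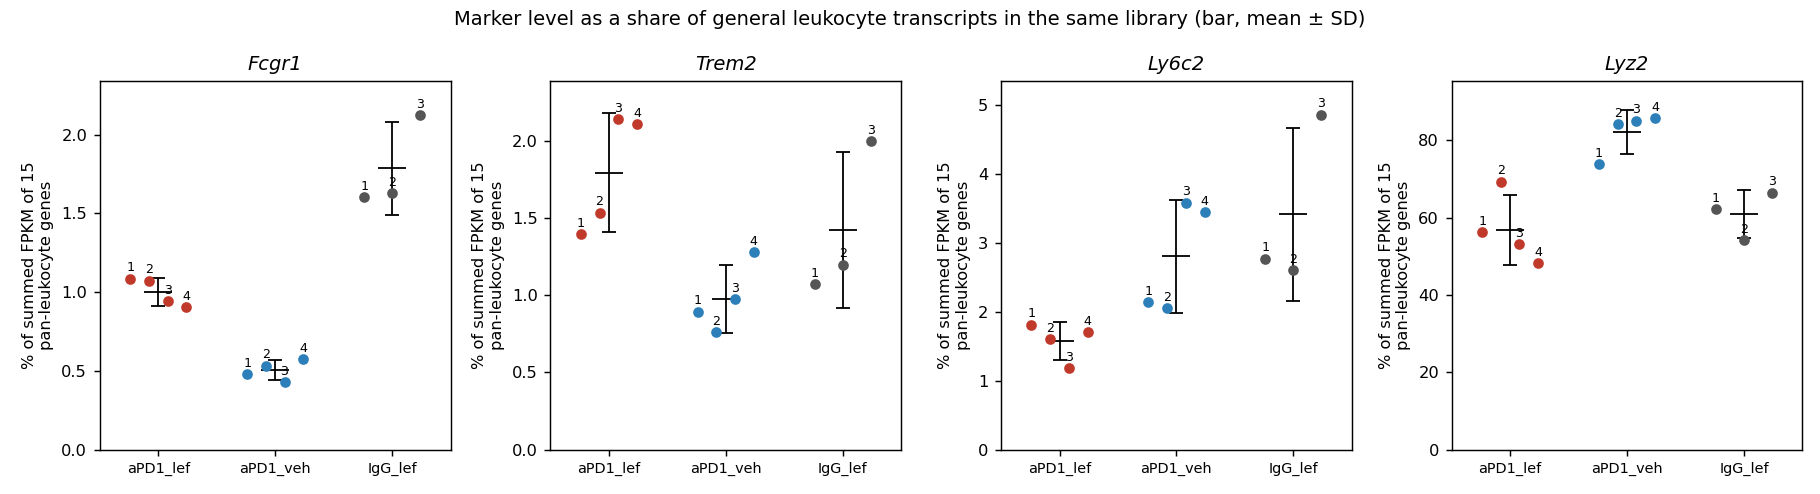
Fcgr1, Trem2, Ly6c2 and Lyz2 as a percentage of the summed FPKM of 15 pan-leukocyte and pan-macrophage genes in the same library, by group, with replicate numbers and a bar for mean ± SD. The 3 groups are apart for Fcgr1, and aPD1_lef lies below aPD1_veh for Ly6c2 and Lyz2.

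The summed neutrophil genes were lower in aPD1_lef replicates 1 to 3 than in every aPD1_veh library. aPD1_lef replicate 4, at 54.9 FPKM, lay within the aPD1_veh range of 51.3 to 110.5. Of 6 tested, 4 fell in aPD1_lef against aPD1_veh (Mmp9, S100a8, S100a9 and Il1b) and 2 did not pass, and Il1b and Mmp9 rose in aPD1_veh against IgG_lef. The alarmin S100a8 had 0.935, 2.18, 1.73 and 19.1 FPKM in aPD1_lef against 44.6, 21.3, 31.2 and 21.1 in aPD1_veh. The defining neutrophil marker Ly6g was listed at 0 in all aPD1_lef libraries, in aPD1_veh replicate 4 and in IgG_lef replicates 1 and 2. It reached 0.469 FPKM at most, in aPD1_veh replicate 3. Of 12 listed T and NK cell genes, 10 were in the table and none passed the filter, with sums of 1.79 to 4.34 FPKM over all libraries. Endothelial genes gave 0 calls among 6 by limma in each comparison, with 1 at an unadjusted p under 0.05 for aPD1_lef against aPD1_veh, 1 for aPD1_veh against IgG_lef and 2 for aPD1_lef against IgG_lef. Among 8 cardiomyocyte genes, 3 fell in aPD1_lef against aPD1_veh (Ryr2, Atp2a2 and Tnni3), as did all 6 tested erythroid genes, whose sum was 3600 to 4204 FPKM against 7817 to 12921. Neither list had a call in the other comparisons. In aPD1_lef against IgG_lef all 8 cardiomyocyte genes were lower, 5 at an unadjusted p under 0.05 (30% of all genes), and 0 erythroid genes were at that level. In aPD1_veh against IgG_lef 0 cardiomyocyte and 3 erythroid genes were (11.4% of all genes). Of 3 tested atrial genes, Nppa rose in aPD1_lef against aPD1_veh, the only call of that list. The libraries with atrial transcripts were set by another gene of the list, Myl7 (threshold 10 FPKM). By replicate, aPD1_lef had 32.5, 43.0, 0.131 and 0.164 FPKM of Myl7, beside 4207, 2071, 5183 and 4866 of Nppa. IgG_lef replicate 2 had 266 of Myl7 and 757 of Nppa. The highest Nppa levels were in aPD1_lef replicates 3 and 4, at 0.131 and 0.164 FPKM of Myl7. The part of atrial tissue in the Nppa rise was not tested. Of the 9 fibroblast genes, Lum fell in aPD1_veh against IgG_lef, and Dcn, Mfap5 and Postn rose in aPD1_lef against IgG_lef. The part of these cell types in the marker values was not tested.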

How the data were processed

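RNA of 12 labelled heart samples was extracted with TRIzol and made into NEBNext Ultra libraries, as the labels' protocols say. Of 12 value columns in the deposited table, 11 bear a sample's name. The other 1 matched no label and was left out, so IgG_lef has 3 libraries. Its name holds the characters of the remaining IgG_lef label in another order, so it may be that library, but a match was not assumed. No source states the unit: the values the authors deposited were read as FPKM, since they are not whole and library totals differ. Per the submitters' processing notes, which give no roles, HISAT2, DESeq2 and mm10 were used. Whole reads could not be recovered: among genes under 0.1 FPKM in a pair of libraries, no single ratio (log2, 3 decimals) held more than 0.708% of them. Read depth is unknown, and no counting error is given. Since the table holds no whole reads, the planned count test gave way to limma.

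Genes at 1 FPKM or more in at least 4 libraries (12005) were fitted as log2(FPKM + 1), computed here from the deposited values, which understates changes of low genes. limma 3.58.1 (trend, robust; statmod 1.5.0; R 4.3.3) fitted 1 model of 3 groups over 11 libraries, with Benjamini-Hochberg adjustment over all genes tested. Python 3.11.15 served for tables and figures (pandas 2.3.3, NumPy 2.4.6, matplotlib 3.10.9). Positions and promoters are RefSeq's on GRCm38.p6. The 10 markers, the other 15 gene lists and the alternatives were chosen with earlier results of these data known. Genes named are the markers, up to 3 called genes of smallest p per list and comparison, Ly6c1, Lyz1, Fcer1g, Tyrobp, Ccl7, Ccl12, Adgre1, Ptprc and Itgam, and the 3 genes most like each called marker. Predicted genes and those known only by a clone or accession name were skipped in finding the genes most like a marker. Other genes named were chosen after their values were seen. A result that the rule would name is not reported here.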

Additional observations from a re-analysis of the deposited data

Results flagged for a closer look

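In each group of 4 libraries, the highest and lowest value of every marker were tested for their gap to the nearest library relative to the group's range (Dixon's test). Of 20 such groups, 6 held a library that stood apart, where chance gives about 1 in 20 for independent groups. These groups are 10 markers in the same 2 sets of libraries, so they are not independent, and 4 of the 6 are 1 library. In aPD1_lef, replicate 4 stood above the others for Ly6c2 at 13.2 FPKM, Plac8 at 23.5, Fcgr4 at 8.98 and Cd68 at 34.8. In aPD1_veh, replicate 3 stood above the others for Ly6c2 at 15.4 FPKM, and replicate 1 for Plac8 at 3.93. IgG_lef, with 3 libraries, was not tested in this way.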

How the results depend on the processing

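Fcgr1 kept its call for aPD1_lef against aPD1_veh under every alternative run except scaling each library to its pan-leukocyte sum, which was chosen after seeing the data. The markers called in that comparison were 2, but 1 with quantile normalization, 1 with no filter on low values, 0 with the pan-leukocyte scaling, and 1 to 2 with a library left out. For aPD1_veh against IgG_lef the count was 1, but 0 with the replicate block (Fcgr1, adjusted p = 0.0781) and 0 to 1 with a library left out. Over all genes, limma called 3892 for aPD1_lef against aPD1_veh (2181 higher, 1711 lower), with 2379 to 4264 when a library was left out and 1892 with the pan-leukocyte scaling (263 higher, 1629 lower). The split was 1784 higher and 2205 lower with quantile normalization, 3480 and 1115 with one total (where the median of all genes was 0.17, not 0.04), and 1902 and 2208 with median-ratio scaling. For aPD1_veh against IgG_lef it called 140 (29 higher, 111 lower), but 92 with no filter, 389 with only the 2 groups compared, 0 with the replicate block and 3 to 482 with a library left out, and the split was 13 and 129 with one total and 69 and 60 with the pan-leukocyte scaling. For aPD1_lef against IgG_lef it called 859 (618 higher, 241 lower), but 277 with no filter, 0 with only the 2 groups compared, 0 with the replicate block, 2081 without the libraries with atrial transcripts, 232 with the pan-leukocyte scaling (129 higher, 103 lower) and 2 to 2276 with a library left out. There the split was 652 and 538 with quantile normalization and 558 and 484 with median-ratio scaling. Several uncalled log2 differences changed sign. The pan-leukocyte scaling shifts all genes (median -0.45 for aPD1_lef against aPD1_veh, 0.39 for aPD1_veh against IgG_lef), and 8 of 10 markers lay above that median in the first of these, so sign changes under it are set by the shift as well. For aPD1_lef against aPD1_veh these were Ly6c2 at 0.036 without the atrial libraries, and with the pan-leukocyte scaling Ccr2 at -0.10, Ccl2 at -0.029, Plac8 at -0.30, Fcgr4 at -0.036, Lyz2 at -0.54 and Gpnmb at -0.10. For aPD1_veh against IgG_lef they were Ccl2 at -0.024 with one total, -0.070 with the replicate block and -0.23 without the atrial libraries, and Lyz2 at 0.43 with the pan-leukocyte scaling. For aPD1_lef against IgG_lef they were Plac8 at 0.10 without the atrial libraries, Lyz2 at -0.0015 with median-ratio scaling, -0.10 without the atrial libraries and -0.11 with the pan-leukocyte scaling, and Cd68 at -0.0083 with quantile normalization, -0.019 with the replicate block and -0.063 with the pan-leukocyte scaling. With a library left out, aPD1_lef against aPD1_veh ranged from -0.42 to 0.079 for Ly6c2, -0.54 to 0.56 for Plac8, -0.0073 to 0.62 for Fcgr4 and -0.13 to 0.22 for Lyz2. Likewise aPD1_veh against IgG_lef ranged from -0.999 to 0.22 for Ccr2, -0.23 to 0.56 for Ccl2, -1.19 to 0.29 for Plac8, -0.37 to 0.42 for Lyz2 and -1.02 to 0.24 for Gpnmb. For aPD1_lef against IgG_lef the ranges were -0.67 to 0.55 for Ccr2, -1.16 to 0.52 for Plac8, -0.98 to 0.21 for Fcgr4, -0.31 to 0.47 for Lyz2, -0.33 to 0.61 for Cd68 and -0.77 to 0.49 for Gpnmb. The causes were not tested. Replicate numbers did not pair the libraries: deviations of same-numbered libraries correlated at -0.290 to 0.194, and not every library correlated best with its own number. Unknown depth limits what can be said of Gpnmb, Ccr2 and other markers near 1 FPKM.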
